A study of Saccharomyces cerevisiae with 4 samples.

Results

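The genes described here are 9 regulators of cell-type identity and of entry into meiosis in budding yeast: RME1, HO, NEJ1, IME1, IME2, IME4, NDT80, SPO11 and UME6. They were chosen by systematic name (YGR044C, YDL227C, YLR265C, YJR094C, YJL106W, YGL192W, YHR124W, YHL022C and YDR207C), are 9 of 6256 genes with a probe on the arrays, and all 9 were among the 5794 genes bright enough to be tested. In Saccharomyces cerevisiae, total RNA of the translocant strain D10 Small was labelled with Cy3 in 4 biological replicates. Each replicate was hybridised to its own two-colour array together with Cy5-labelled RNA of 1 pool of the parental strain, WT San I. Cultures were harvested from the rich glucose medium YPD at an optical density of 0.4 to 0.5, and D10 Small alone was grown with the antibiotic kanamycin at 200 mkg/ml. Effects of strain, kanamycin and dye therefore cannot be told apart. The pool is 1 control sample, and its spread enters no test. The labels give neither the mating type nor the ploidy of the strains, nor how the pool was composed or whether D10 Small is 1 clone.

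A yeast cell reads its identity from the mating-type locus. In a/alpha cells, which are usually diploid, the a1 and alpha2 proteins together repress the haploid-specific genes, RME1, HO and NEJ1 among them. In cells of a single mating type this repressor is missing. Rme1 then holds back transcription of IME1, the master regulator of meiotic entry, and an antisense transcript blocks IME4. Starvation of a/alpha cells raises Ime1, which turns the repressor Ume6 into an activator of early meiotic genes such as IME2 and SPO11, and Ndt80 later drives the middle genes. Cells dividing in glucose medium normally do not enter this programme.

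D10 Small had more RNA of the 3 haploid-specific regulators and less of IME4, while the core meiotic regulators had ratios close to 0 in the processing used here. The fitted ratio of RME1 was 3.97-fold higher and that of IME4 3.50-fold lower. HO and NEJ1 were higher, with bounds of 2.35-fold and 1.65-fold that hold for this processing. The dimmer channel was above background on 1 of 4 arrays for RME1 and on 2 of 4 for IME4, and their folds reached 54.1 and 133 in the scanner's net ratio, so their direction is better measured than their size. IME1 and UME6 were lower by 1.12-fold and 1.14-fold, and by 2.65-fold and 2.45-fold in the scanner's net ratio, so their size depends on the processing too. IME2, NDT80 and SPO11 did not pass the test in the processing used here. The pool was above background on 1 array for IME2 and on 0 arrays for SPO11. Their log2 ratios were 0.72 and 0.61 in the scanner's net ratio and -0.45 and -0.49 with median centring, so they are poorly measured. Log2 ratios are of D10 Small over the pool, given with their SD across the 4 arrays, and were tested against 0 with limma at an adjusted p under 0.05 over all tested genes. In that test 43.2% of all tested genes were higher and 39.5% lower, against 3 and 3 of these 9, so a call alone sets no gene apart. Differences of at least 2-fold were rarer, with 6.23% of tested genes higher and 3.05% lower, against RME1 and HO higher and IME4 lower. In bulk RNA, fewer cells that express a gene and less RNA per cell cannot be told apart.

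**Figure D1:**
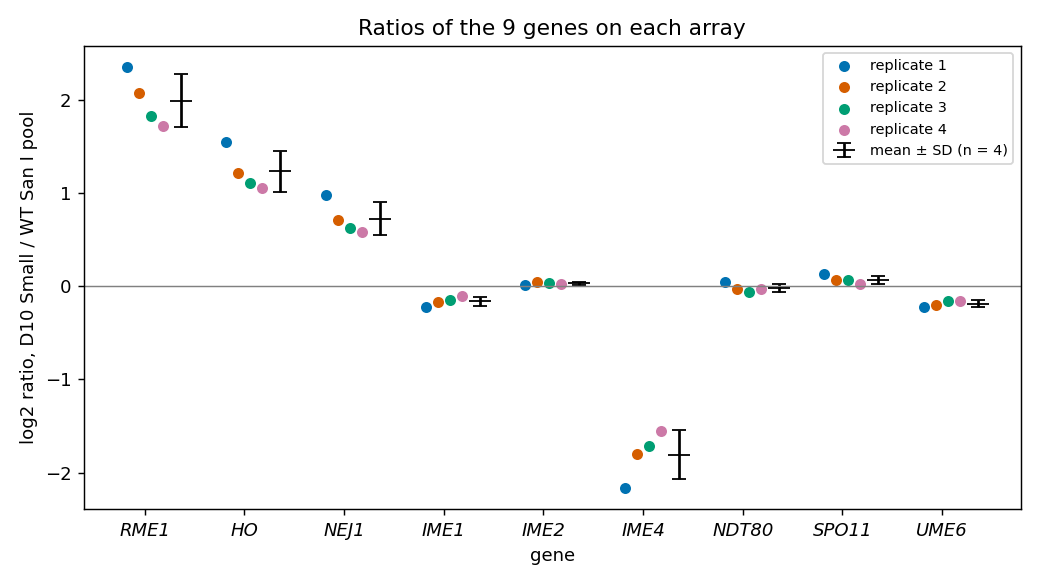
Log2 ratio of D10 Small over the WT San I pool for the 9 genes on each of 4 arrays (coloured points), with the mean ± SD (black). RME1, HO and NEJ1 lie above 0 and IME4 below it on every array, and the other 5 genes lie within 0.23 of 0.

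The arrays gave signal above background for 91.8% to 93.2% of probes in the D10 Small channel and for 86.0% to 89.1% in the pool's channel. A gene's signal counted as above background where at least 4 of its 7 spots, outlier spots included, exceeded a threshold set from negative control spots. The threshold lay between 8.21 and 12.1 scanner units for D10 Small and between 3.29 and 5.38 for the pool. The median raw intensity was highest on replicate 1 in both channels, at 444 and 261, against 304 and 120.4 on replicate 4. Levels of the channels are on separate scales, so each is read against its own threshold.

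RME1, on the right arm of chromosome VII, encodes a zinc-finger protein that represses IME1 and promotes the G1 cyclin gene CLN2. Its net intensity in D10 Small was 456, 414, 360 and 311 on replicates 1 to 4. In the pool it was 5.36, 1.12, 1.85 and 1.51. All 28 D10 Small spots were above background, and 7 of the 28 pool spots were, so the pool counted as above background on replicate 1 alone. There it rested on 4 pool spots, and a spot at 10 among them was dropped from the ratio as an outlier. The mean of the kept pool spots on replicate 1, 5.36, lay just below the threshold of 5.38. The log2 ratios were 2.35, 2.07, 1.82 and 1.72, so every array was high in D10 Small. Their mean was 1.99 ± 0.28 (SD, n = 4), with a 95% confidence interval of 1.77 to 2.21 and a limma adjusted p of 4.84e-07. The size of the ratio depended on the processing, with a log2 ratio of 3.24 when no background was corrected, 3.39 in the authors' value table and 5.76 in the scanner's net ratio.

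HO encodes the endonuclease that starts mating-type switching, and laboratory strains often carry a disrupted copy. D10 Small gave net intensities of 217, 178, 173 and 148, all far above the threshold. The pool gave 1.95, 0.113, 0.980 and -0.172, and 1 of its 28 spots was above background. HO was thus measured in D10 Small and not above background in the pool on any array. The log2 ratios were 1.54, 1.22, 1.11 and 1.06, with a mean of 1.23 ± 0.22 and a limma adjusted p of 1.86e-06. As the pool's level is only bounded, HO was at least 2.35-fold higher in this processing. That bound equals the fitted fold, and without replicate 1 the fitted fold was 2.18. The log2 ratio of HO was 2.46 when no background was corrected, 2.595 in the authors' value table and 4.95 in the scanner's net ratio.

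NEJ1 encodes a partner of the ligase factor Lif1 in nonhomologous end joining, and its repression in a/alpha cells lowers that pathway there. Its net intensity in D10 Small was 114, 94.0, 84.8 and 74.2, and in the pool 1.52, 0.431, 0.0640 and 0.0686. As for HO, 28 of 28 D10 Small spots and 1 of 28 pool spots were above background. The log2 ratios were 0.97, 0.71, 0.63 and 0.58, with a mean of 0.72 ± 0.18 and a limma adjusted p of 1.36e-05. NEJ1 was at least 1.65-fold higher in this processing, a bound equal to its fitted fold. Median centring gave a smaller fitted fold of 1.53, and leaving out replicate 1 gave 1.56. The log2 ratio of NEJ1 was 1.78 without background correction and 1.97 in the table of the authors.

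RME1, HO, NEJ1, IME2 and SPO11 entered the test through the D10 Small channel alone, which favours positive ratios, and IME4 through the pool alone, which favours a negative one. Of the 234 tested genes whose pool signal was not above background on any array, 56.4% were higher and 0.427% lower, with a median ratio of 0.09 and quartiles at 0.03 and 0.22. At least 2-fold ratios were seen for 2.99% of these 234 genes. HO, NEJ1 and SPO11 belong to these 234 genes, and SPO11 did not pass the test.

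**Figure D2:**
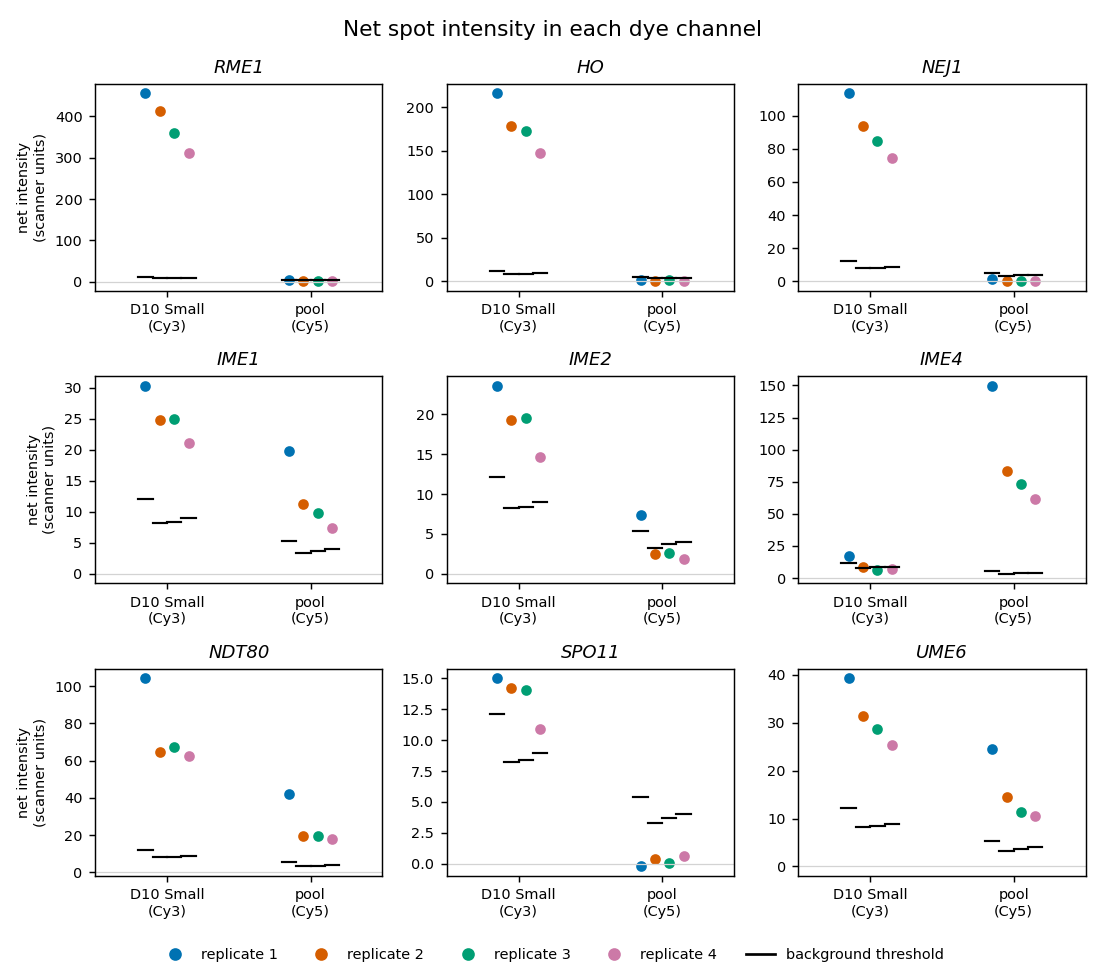
Net intensity (spot minus local background, linear scanner units, mean of the kept spots) of the 9 genes in the D10 Small channel and in the pool's channel, coloured by replicate, with the background threshold of each array and channel as a black bar. Panels have their own axes. RME1, HO and NEJ1 stand above the threshold in D10 Small and at or below it in the pool on most arrays. IME4 stands above the threshold in the pool on all 4 arrays and near it in D10 Small, where it passed on 2 arrays.

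IME4, on the left arm of chromosome VII, encodes the methyltransferase that makes N6-methyladenosine in mRNA during entry into meiosis. It showed the opposite picture to RME1. Its net intensity in the pool was 150, 83.6, 73.0 and 61.9, with 28 of 28 spots above background. In D10 Small it was 16.9, 8.95, 6.13 and 7.39, with 15 of 28 spots above, and D10 Small passed as above background on 2 of the 4 arrays. The log2 ratios were -2.17, -1.80, -1.71 and -1.55, with a mean of -1.81 ± 0.26, a 95% confidence interval of -2.01 to -1.60 and a limma adjusted p of 5.33e-07. IME4 was low in D10 Small on every array. Larger sizes came without background correction, at -3.34, from the table of the authors, at -3.73, and from the scanner's net ratio, at -7.05. The strand that the probe reads is not given in the sources used here, so sense and antisense RNA of IME4 are not told apart.

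IME1, the transcription factor that starts the meiotic programme, was above background in both channels on all 4 arrays. D10 Small gave net intensities of 30.4, 24.8, 24.9 and 21.0, and the pool gave 19.8, 11.3, 9.89 and 7.44. The log2 ratios of -0.23, -0.18, -0.15 and -0.10 were all slightly low, with a mean of -0.16 ± 0.05 and a limma adjusted p of 0.00185. UME6, which binds the URS1 element of early meiotic genes and recruits a histone deacetylase, had similar values. Its net intensity ran from 25.4 to 39.4 in D10 Small and from 10.6 to 24.4 in the pool. Its log2 ratios of -0.23, -0.20, -0.16 and -0.16 gave a mean of -0.19 ± 0.03 and a limma adjusted p of 0.000579. Against a minimum fold of 1.2 neither gene passed, both with a limma adjusted p of 1.00. Their ratios were larger in other processings, with -0.41 for IME1 and -0.52 for UME6 without background correction and with -1.41 and -1.29 in the scanner's net ratio, where both passed with limma adjusted p of 5.47e-06 and 2.59e-06.

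IME2, NDT80 and SPO11 did not pass the limma test. IME2, a meiotic kinase that is a direct target of Ime1, had net intensities of 23.6, 19.3, 19.6 and 14.7 in D10 Small and of 7.41, 2.46, 2.58 and 1.86 in the pool, where it was above background on 1 array. Its log2 ratio was 0.03 ± 0.02, with a 95% confidence interval of -0.04 to 0.10 and an adjusted p of 0.377. NDT80, the activator of middle meiotic genes, was measured in both channels on all arrays, at 62.5 to 104 in D10 Small and 17.8 to 42.1 in the pool. Its log2 ratio was -0.02 ± 0.05, within an interval of -0.10 to 0.05 and with an adjusted p of 0.529, and its arrays went both ways. SPO11 encodes the enzyme that makes the DNA breaks of meiotic recombination. Its net intensity was 10.9 to 15.03 in D10 Small, close to the threshold, and -0.218 to 0.626 in the pool, where 0 of 28 spots were above background. The log2 ratio of SPO11 was 0.07 ± 0.04, with an interval of -0.004 to 0.14 and an adjusted p of 0.0710. Its bound of 1.03-fold holds for this processing and is close to no difference. For IME2 and SPO11 the sign depended on the scaling: median centring in place of loess gave -0.45 and -0.49, and both then passed as lower, while without background correction they passed as higher with 0.12 and 0.27.

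**Figure D3:**
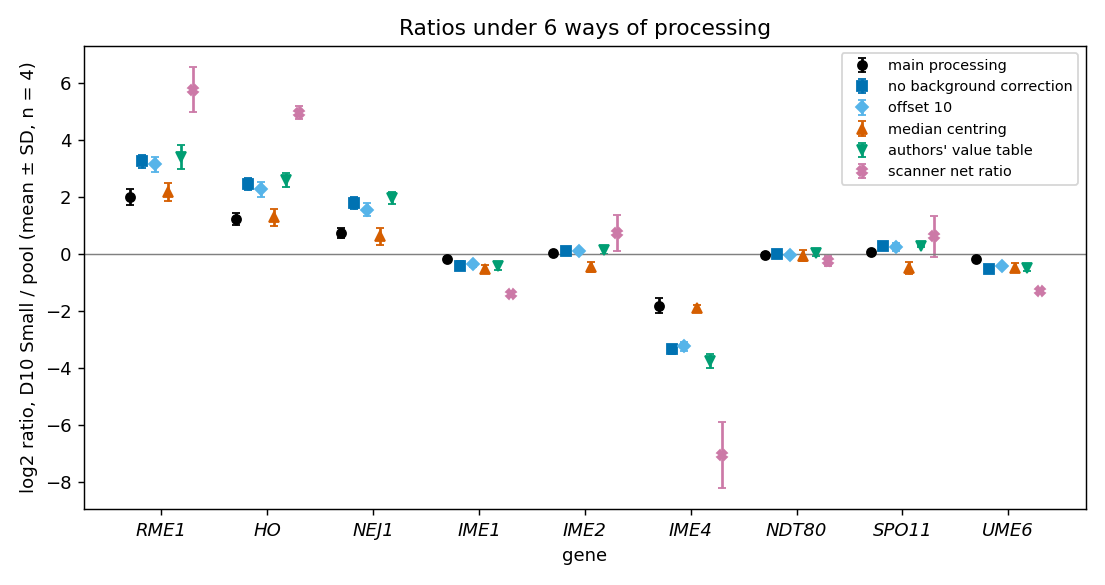
Log2 ratio of D10 Small over the pool (mean ± SD, n = 4) for the 9 genes under 6 ways of processing. RME1, HO, NEJ1 and IME4 keep their sign wherever a value was obtained while their size varies, NDT80 lies between -0.24 and 0.02, and IME2 and SPO11 lie on both sides of 0. NEJ1 has no value with the scanner's net ratio.

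Across the arrays the ratios of RME1, HO, NEJ1, IME4, IME1, UME6 and SPO11 were farthest from 0 on replicate 1, the array with the brightest signal in both channels. Without replicate 1 the ratio was 1.87 for RME1, 1.13 for HO, 0.64 for NEJ1 and -1.69 for IME4, and the count stayed at 3 higher and 3 lower. The part of brightness in this spread was not tested. Within an array the ratios of the kept spots had an SD from 0.06 to 0.12 for RME1 and from 0.05 to 0.11 for NEJ1, below the SD across arrays for both. For HO the spot SD ran from 0.09 to 0.25 and for IME4 from 0.13 to 0.45, which on at least 1 array is above the SD across arrays. For IME1 and UME6 it ran from 0.11 to 0.12 and from 0.06 to 0.20, above the SD across arrays throughout. For IME4 all its kept spots lay between -2.40 and -1.24.

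RME1 lies in a stretch of chromosome VII right, YGR033C to YGR278W, that earlier results of these data named as shifted. The counts for this stretch therefore describe it and do not test it. Of its 227 other tested genes 190 were lower and 21 higher, beside 39.5% and 43.2% of all tested genes. The median ratio of these 227 genes was -0.62. RME1 stood above that median by 3.03, 2.69, 2.40 and 2.27 on replicates 1 to 4, a mean of 2.596 ± 0.34. None of the 227 reached its ratio, the highest being 1.78. As the pool signal of RME1 was above background on 1 array only, the size of this difference depends on the offset, and it was larger in the other treatments of background. Its 10 nearest tested neighbours had 8 lower genes, 1 higher gene and a median ratio of -0.49. The higher one was the adjacent gene NQM1, which encodes a transaldolase, with 1.03 ± 0.16, while ORM1, a regulator of sphingolipid synthesis, had -1.23 ± 0.10 and the bud-site gene BUD9 -1.16 ± 0.10. SPO11 lies on VIII left, where 31 of 45 other tested genes were higher, 6 were lower and the median ratio was 0.35. Its own place among them was not read, as its pool signal is only bounded.

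**Figure D4:**
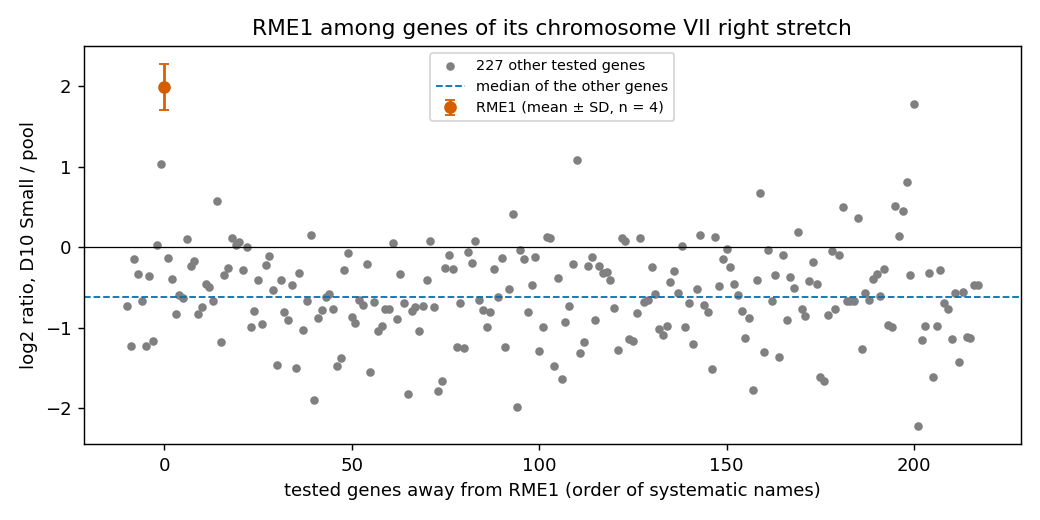
Log2 ratio of RME1 (orange, mean ± SD, n = 4) and of the 227 other tested genes of its stretch on chromosome VII right (grey), in the order of their systematic names. The dashed line is the median of the other genes, -0.62, and RME1 at 1.99 lies above all of them.

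Other genes under the a1-alpha2 repressor were higher as well. All 7 other haploid-specific genes were higher, beside 43.2% of all tested genes, with a median of 2.15 beside 0.02 over all tested genes. STE4 and GPA1, the beta and alpha subunits of the pheromone G protein, had 3.37 ± 0.31 and 3.01 ± 0.27. The mating kinase FUS3 had 2.78 ± 0.34, the scaffold STE5 1.58 ± 0.21 and the gamma subunit STE18 1.26 ± 0.16. AXL1, a protease of a-factor maturation, and FAR1, which arrests the cell cycle, were not above background in the pool. They were at least 4.44-fold and 2.00-fold higher in this processing, bounds equal to their fitted folds. Across the arrays their log2 ratios ran from 1.855 to 2.57 and from 0.79 to 1.31. The 5 genes with both channels above background on all arrays were also higher, so this count does not rest on the dim pool signal alone.

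Markers of mating type were read beside these genes. All 7 a-specific genes were higher, beside 43.2% of all tested genes. Their ratios ran from 0.32 for ASG7 to 3.65 for the a-factor exporter STE6, with a median of 0.89. The pool was above background on 0 arrays for STE2, BAR1, AGA2 and MFA2 and on 1 and 2 arrays for MFA1 and ASG7, while STE6 was measured in both channels on all 4. All but STE6 thus entered the test through the D10 Small channel alone, which favours positive ratios. Of all tested genes with the pool above background on 0 arrays, 56.4% were higher. With median centring 5 of the 7 a-specific genes were higher. Of the 4 alpha-specific genes, SAG1 was higher with 0.44 ± 0.10. STE3 was called higher too, through the D10 Small channel alone, with a bound of at least 1.22-fold in this processing. With median centring 1 of SAG1 and STE3 was higher. MF(ALPHA)1 and MF(ALPHA)2 were below background in D10 Small on all 4 arrays and were not tested. In the pool they were above background on 1 array and on 0 arrays, so neither channel measured them.

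The genes of the mating-type cassettes on chromosome III differed less. MATALPHA2, HMLALPHA2 and HMRA2, which share sequence and cannot be taken as separate measurements, were lower with -0.66 ± 0.04, -0.66 ± 0.04 and -0.57 ± 0.06. MATALPHA1 and HMLALPHA1, identical copies in the reference strain, had -0.04 ± 0.03 and 0.01 ± 0.04 and did not pass, with limma adjusted p of 0.301 and 0.875. HMRA1, which carries the a1 sequence, was higher with 0.31 ± 0.17, and its arrays ran widely from 0.08 to 0.47. Genes of both arms of chromosome III were mostly lower, with medians of -0.81 on the left and -0.31 on the right. The part of this shift in the cassette values was not tested.

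Regulators upstream of HO went both ways. The list of 10 had 6 lower and 3 higher genes, beside 39.5% and 43.2% of all tested genes, and a median ratio of -0.31. GCN5, a histone acetyltransferase, had -0.96 ± 0.11 and lies in the same stretch of VII right as RME1. SWI3, a subunit of the SWI/SNF remodeller, had -0.80 ± 0.08, SWI6, a cofactor of G1 transcription, had -0.72 ± 0.09, and the deacetylase RPD3 had -0.69 ± 0.04. ASH1, the daughter-cell repressor of HO, had -0.37 ± 0.06. SWI5, the activator of HO in mother cells, had -0.07 ± 0.04 and did not pass. Of the genes that act with RME1, the Mediator subunit RGR1 was lower with -0.21 ± 0.12, SIN4 had 0.04 ± 0.08 and did not pass, and the target gene CLN2 was lower with -0.32 ± 0.06.

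The end-joining partners of NEJ1 differed little. Their list of 8 had 2 higher and 3 lower genes, beside 43.2% and 39.5% of all tested genes, and a median ratio of -0.04. The ligase gene DNL4 had the largest ratio with 0.39 ± 0.06, and LIF1, whose protein binds Nej1, had 0.06 ± 0.04 and did not pass. The other called genes, MRE11, RAD50, XRS2 and YKU80, lay between -0.13 and 0.10.

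Regulators of IME1 went both ways. The list of 14 had 8 higher and 3 lower genes, beside 43.2% and 39.5% of all tested genes, and a median ratio of 0.23. RIM101, which relays alkaline pH to IME1, had 1.02 ± 0.10 and lies on VIII left. SOK2, a repressor under protein kinase A, was also higher with 0.74 ± 0.02. Lower were TUP1, a general corepressor on III right, with -1.21 ± 0.11, and RIM11, a kinase that helps Ime1 bind Ume6, with -1.13 ± 0.19. In the corepressor complex of UME6, 5 of 8 genes were lower and 2 higher, beside 39.5% and 43.2% of all tested genes. Their median ratio was -0.17. DEP1 had -0.99 ± 0.08, and its arm, I left, had a median of -0.52. RPD3, counted above as well, and SAP30 with -0.61 ± 0.08 were also lower, as was UME1 with -0.25 ± 0.06.

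The 3 listed genes that Ume6 represses outside meiosis were all higher, beside 43.2% of all tested genes. The arginase gene CAR1 had 1.08 ± 0.16, the inositol synthesis gene INO1 0.24 ± 0.05 and the acetyl-CoA synthetase gene ACS1 0.10 ± 0.03. With median centring 1 was higher and 1 lower, and against a minimum fold of 1.2 only 1 was higher. Partners of IME4 did not share its ratio as a group. KAR4, on III left, was lower with -1.28 ± 0.11, and MUM2 was higher with 0.16 ± 0.06. The methyl-reader PHO92, not above background in the pool, was at least 1.10-fold higher in this processing. SLZ1 was below background in both channels. Of the repressor complex that silences NDT80 and the middle genes in dividing cells, SUM1 and HST1 were higher with 0.76 ± 0.07 and 1.12 ± 0.08, and RFM1 was lower with -0.13 ± 0.03. HST1 lies in a stretch of XV left, YOL087C to YOL019W, with a median of 0.80.

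Many of the downstream meiotic genes were too dim to be tested. Over all tested genes 43.2% were higher and 39.5% lower, beside which the counts of both meiotic lists are to be read. Of 22 early meiotic genes 15 could be tested, of which 8 were higher and 3 lower, around a median ratio of 0.11. Most of the higher early genes entered the test through the D10 Small channel alone, which favours positive ratios. The 3 lower ones were above background in both channels on all 4 arrays. HFM1, a meiotic helicase, had 0.60 ± 0.15 and REC8, the meiotic cohesin, 0.51 ± 0.12. RED1, of the chromosome axis, had 0.40 ± 0.11, and ZIP1, of the synaptonemal complex, was lower with -0.76 ± 0.10. Of 16 middle genes 10 could be tested, of which 8 were higher and 0 lower by limma (0 lower also at an unadjusted p under 0.05). Their median ratio was 0.28. All of the tested middle genes but GIP1 and SPS4 entered the test through the D10 Small channel alone, which favours positive ratios. The glucoamylase SGA1 and the spindle pole gene MPC54 were at least 1.89-fold and 1.69-fold higher in this processing, bounds equal to their fitted folds. They were followed by SPO20 with 0.50 ± 0.10 and DIT1 with 0.48 ± 0.08. The pool was above background on 1 array for REC8, SPO20 and DIT1 and on all 4 for HFM1, RED1 and ZIP1. Of these genes, 6 early and 5 middle ones were below background in both channels on all arrays, among them MEK1, MND1, SPS2 and SPR3. The direction of both lists depended on the scaling, with 4 higher and 7 lower early genes and 4 higher and 4 lower middle genes under median centring, which moved the median of the 234 genes with a dim pool signal from 0.09 to -0.44.

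**Figure D5:**
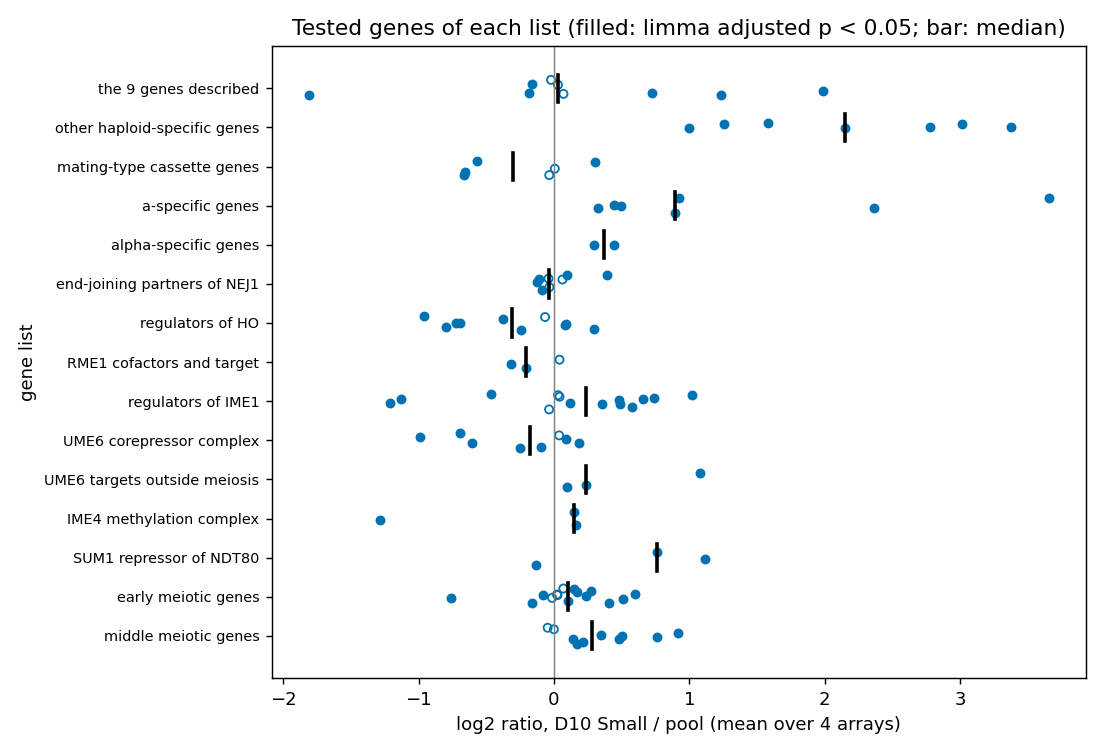
Log2 ratio of D10 Small over the pool for the tested genes of each list, as the mean over 4 arrays; filled points passed limma at an adjusted p under 0.05, open points did not, and the black bar is the list's median. The haploid-specific genes lie highest with a median of 2.15. The early and middle meiotic lists have medians of 0.11 and 0.28 in this processing, and their size depends on it.

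The genes whose ratios over the 4 arrays lay closest to those of RME1, by Euclidean distance, were MOH1 at 0.13, YRF1-5 at 0.26, YML133C at 0.26, MDM38 at 0.28 and YRF1-4 at 0.30. For HO they were DSF1 at 0.07, COS12 at 0.11, the haploid-specific STE18 at 0.12, SRL3 at 0.14 and MDM35 at 0.15. For NEJ1 they were OSI1 at 0.05, SET4 and EDS1 at 0.06, and SKA1 and GTT2 at 0.08. These are similar fitted sizes on 4 arrays of 1 comparison and no more than that. The pool was above background on 1 array for RME1 and on 0 arrays for HO and NEJ1, so their fitted ratios are drawn toward 0 by the offset, while the pool was measured on at least 3 arrays for all of the genes named beside them except OSI1 and SET4. Another processing could name other genes.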

How the data were processed

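Per the file headers, the deposited scanner files hold linear spot and local background intensity for each dye, and a net log2 ratio whose Cy5 channel was rescaled by an unnamed step. The deposited value table of the authors gives log2 ratios, with array medians from -0.00570 to 0.00265 and unstated normalisation. Over genes its columns followed the ratios computed here (r from 0.965 to 0.972), which sets its direction. The scanner software is not given in the sources used here.

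Mean intensities were corrected with limma 3.58.1 (R 4.3.3) by normexp with an offset of 50, which draws ratios of dim genes toward 0, and normalised by loess within each array with control spots at weight 0. Spots farther than 1.42 interquartile ranges outside the quartiles of their probe in a channel were dropped, and the rest averaged. The background threshold was the mean of 153 negative control spots plus 2.6 SD. Genes above background on 3 or more arrays in either channel were tested, by lmFit and eBayes with an intercept only and Benjamini-Hochberg adjustment over 5794 genes. A bound divides the mean of the brighter channel by that of the dim one (after loess and Aquantile). A dim signal below the dimmest signal counted as above background on that array was raised to it. Dye bias can affect a bound. Each bound holds for the main processing of the 4 arrays, and another processing or fewer arrays can give a smaller fold. In the scanner's net ratio the median over spots was taken, without spots whose net log2 ratio was extreme in either direction. The number of arrays limits the precision. Symbols come from a table of the R64 assembly, which matched 5756 of 6256 probes. The arrays allow no batch term.

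The 9 genes, the 14 lists and the stretches of VII right and XV left were chosen with earlier results of these data known. Named are all 9 genes, all members of lists of at most 7 genes, and up to 4 called members of largest ratio from longer lists; SWI5, ASH1, LIF1, XRS2, the genes named as below background, and the neighbours of RME1 were chosen after their values were seen. On simulated arrays with 5825 genes tested, 98% of 2-fold changes in either direction and 0.107% of unchanged genes were called. Genes raised 2-fold had a median fitted ratio of 0.81. Both simulated channels were built from the D10 Small intensities. Genes bright in 1 channel and near background in the other, like RME1, HO, NEJ1 and IME4, were thus not simulated, so these rates do not cover them.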

Additional observations from a re-analysis of the deposited data

Results flagged for a closer look

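Of 74 genes examined, these 9 and genes of the lists, 5 had 1 array apart from the other 3 by a gap, as a share of their range, above Dixon's critical value at the 95% level, and chance gives such gaps in about 1 of 20 genes. The gap was 0.966 of the range for MFA2, whose log2 ratio was 1.29 on replicate 1 against 0.75 to 0.77 on the others. It was 0.963 for STE3, with 0.39 on replicate 1 against 0.26 on the others. YKU80 had a gap of 0.906 with -0.16 on replicate 1, and RGR1 of 0.850 with -0.38 on replicate 1. SDS3, of the UME6 corepressor complex, had a gap of 0.959 with -0.04 on replicate 4 against 0.06 to 0.07 on the others. None of the 9 regulators was among them.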

How the results depend on the processing

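RME1, HO, NEJ1 and IME4 kept their direction and their limma call under every alternative that gave a value. The requirement of signal above background in both channels on all 4 arrays left them out, with IME2 and SPO11, so that 0 of the 9 were higher by limma, and the scanner's net ratio gave no value for NEJ1. No paired analysis was possible because all arrays hold 1 group against 1 pool. With no background correction 5 of the 9 were higher, IME2 (0.12) and SPO11 (0.27) being added, as with an offset of 10 (5 higher, IME2 0.10, SPO11 0.23) and in the authors' value table (5 higher, IME2 0.14, SPO11 0.27), where NDT80 had 0.02 in place of -0.02 without a call. The scanner's net ratio called IME2 (0.72) and NDT80 (-0.24). With median centring 5 were lower, IME2 (-0.45) and SPO11 (-0.49) having turned sign. Against a minimum fold of 1.2, 1 was lower, IME1 (-0.16) and UME6 (-0.19) no longer passing, and over all genes 1424 were higher and 1154 lower. RME1's difference from its stretch was 3.98 without background correction, 3.89 with an offset of 10, 4.15 in the authors' value table and 6.73 in the scanner's net ratio. Early genes were 4 higher and 7 lower with median centring, 2 higher with both channels required, and 3 higher and 1 lower against the minimum fold. Middle genes were 4 higher and 4 lower with median centring, 1 higher with both channels required and 4 higher against the minimum fold. Lower middle genes were 1 without background correction, with an offset of 10, in the authors' value table and with all spots kept, and 2 in the scanner's net ratio. Of the other lists, 37 of 286 recomputed counts moved by over 1.5 times. The causes were not tested, beyond fewer genes entering where both channels were required. Leaving out 1 replicate changed no call among the 9. Dim signal of the pool limits the ratios of HO, NEJ1, RME1, IME2 and SPO11, and dim signal of D10 Small that of IME4.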
